A study of Homo sapiens with 2 samples.

Results

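Wnt, TGF-beta, BMP and Notch genes were examined in the small cell lung cancer line SBC5 and in a derivative that withstands cisplatin, which kills cells by linking DNA strands. The genes were the rows of the deposited expression table whose names begin with the family stems WNT, FZD, DKK, AXIN, TCF7, TGFB, BMP, SMAD, ACVR, NOTCH, JAG, DLL, HES or HEY, or that are one of a short set of further pathway genes such as LRP6, APC, FST, the ID genes and RBPJ. The rule itself uses names, and the row with the higher mean stood for a name with several rows. The rule found 82 genes in 111 rows, out of 12494 named genes and 19217 rows. It took in 4 names on no role list, and 78 genes on the role lists: 27 of Wnt, 33 of TGF-beta and BMP, and 18 of Notch. The 33 include 3 genes listed for a TGFB or BMP name only (BMP1, BMP2K and TGFBRAP1). There was 1 library of parental cells and 1 of resistant cells, the latter grown through cisplatin steps of 1, 2, 4 and 20 µg/ml. Both were cultured in medium with fetal bovine serum, and the labels do not say whether the resistant cells still had drug when RNA was taken. The resistant cells are a single selected derivative, so a difference between the libraries cannot be told apart from a difference between any 2 cultures of the line.

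Wnt proteins bind frizzled receptors together with LRP5 or LRP6, which spares beta-catenin from a complex of AXIN, APC and GSK3B and lets it act with TCF and LEF factors in the nucleus. TGF-beta, activin and BMP ligands bind paired receptor kinases that phosphorylate SMAD proteins, and ID genes are classic BMP targets. Notch receptors are cut when they meet a Jagged or Delta ligand on a neighbouring cell, and the freed part joins RBPJ to switch on HES and HEY repressor genes. In small cell lung cancer the Delta-like gene DLL3 and low Notch activity are associated with the neuroendocrine state.

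Values were FPKM, fragments scaled to transcript length and to library size, so levels of different genes can be set side by side. The sum over all rows was 1019555 for parental cells and 1081047 for resistant ones. How many fragments lie behind each value is unknown, and with 1 library per group no difference has a replicate check and none was tested. Ratios are given as log2 of resistant over parental FPKM, with 1 FPKM added to both, which understates the change of low genes wherever a gene reached 1 FPKM in one library or both. Of 12 listed markers of small cell lung cancer and its neuroendocrine state, 7 had a row, from 0.821 FPKM in the parental library for NCAM1 to 214 FPKM for SOX2. Their summed level was 432 FPKM in the parental library and 334 in the resistant one, and SCG2, a granule protein, differed most, with 109 and 20.1 FPKM. SYP (log2 ratio 0.01), DLL3 (-0.03), YAP1 (0.14) and NCAM1 (0.53) were level or higher. SOX2 (-0.12) and NKX2-1 (-0.37) were lower in the resistant library. Of 6 fibroblast markers 3 had a row, with a sum of 51.5 and 21.5 FPKM. PDGFRA had 48.0 and 10.1 FPKM, while the collagen genes COL3A1 (1.18 and 7.51) and COL1A1 (2.34 and 3.85) were higher in the resistant library. HBB was the one of 5 haematopoietic markers with a row (2.69 and 0.472 FPKM), and none of 4 endothelial markers had one. The part of these differences in the values below was not tested, and in bulk RNA fewer cells with a transcript cannot be told apart from less of it per cell.

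Most of these genes had similar levels in both libraries. At least 1 FPKM was reached by 81 of the 82, all but HEY2. A log2 ratio of at least 1 was reached by 4 of the 81 (DKK1, FZD8, WNT7B and HES2), and a ratio of at most -1 by 2 (LRP6 and BMP4). Here and below, 2-fold means these limits on FPKM with 1 added, so a low gene can differ by more in FPKM itself. Over all 12405 genes compared, 3.28% were higher and 2.7% lower by the same rule, 5.98% together, against 7.41% of these genes, so the share past the limit lay near the background. A log2 ratio over 0.58 in size, about 1.5-fold, was found for 19 genes (23.5%) against 14.4% of all genes. The median log2 ratio was 0.02, and -0.04 over all genes compared. Ratios above 0 were found for 42 genes and below 0 for 39 (51.9% above, against 44.4% of all genes). Genes under 5 FPKM in the mean passed the 2-fold limit most often, 3 of 21 here (14.3%) and 11.6% of all such genes. The shares were 2 of 34 (5.88%) against 6.22% from 5 to 20 FPKM, and 1 of 26 (3.85%) against 2.75% above that. ID1 (0.92), ID4 (0.89), WNT4 (0.89) and HES7 (-0.86) fell just short of the limit, and DKK1 (1.04) and LRP6 (-1.07) just passed it. In FPKM without the added 1, WNT4 differed 3.32-fold.

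**Figure D1:**
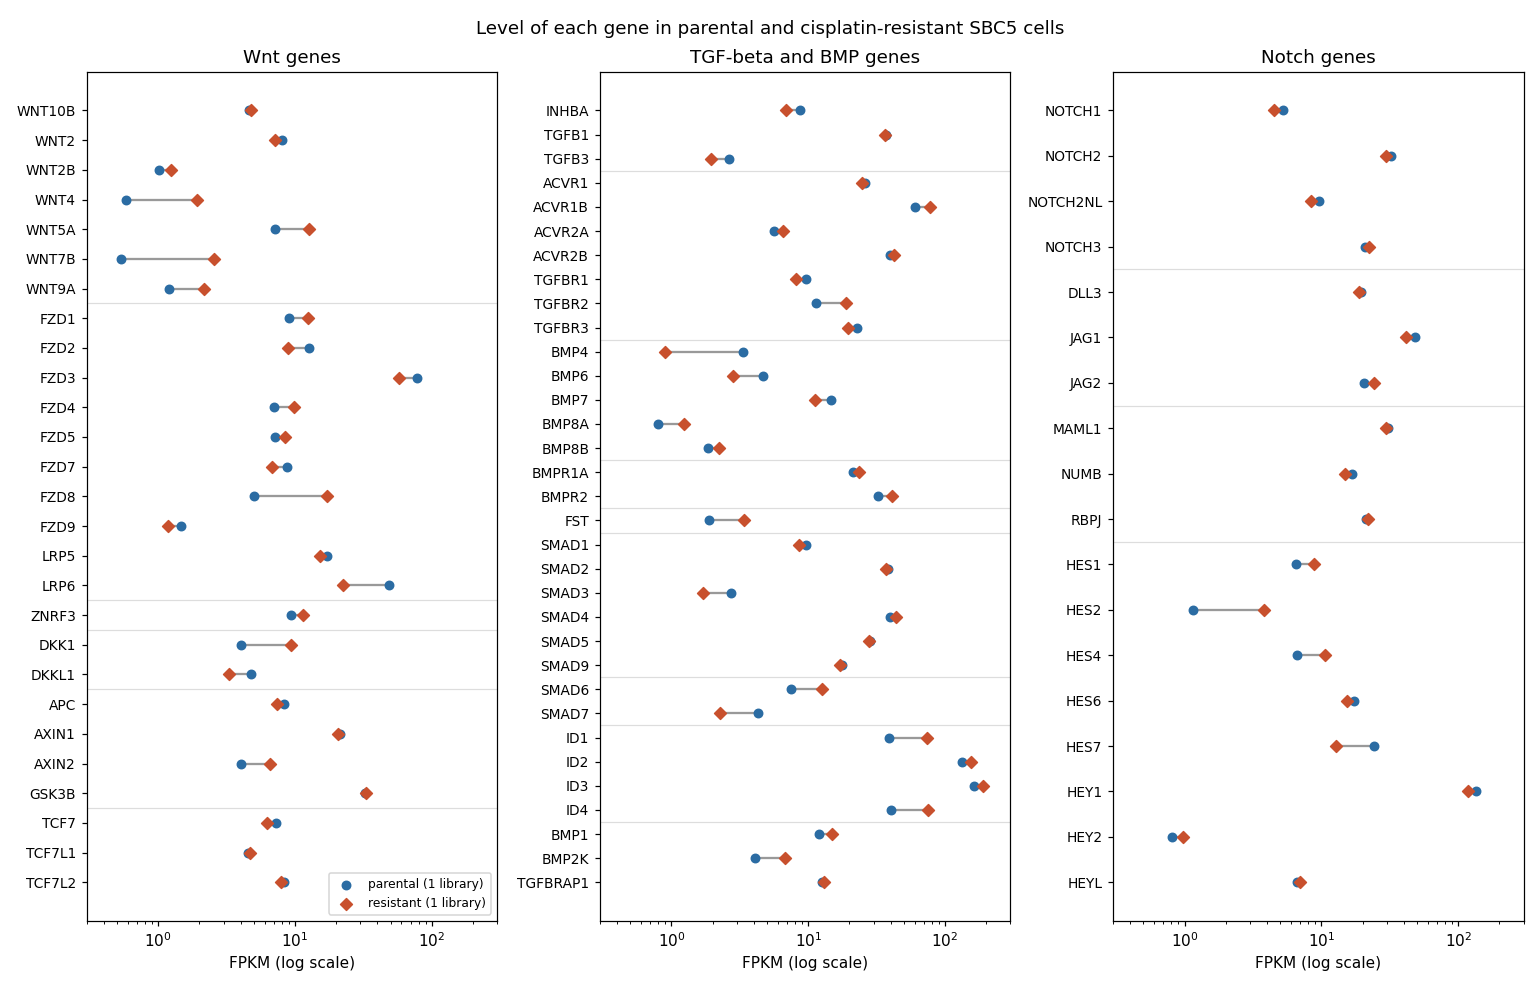
FPKM of each gene in the parental (circles) and the resistant library (diamonds) on a log axis, in panels for Wnt, TGF-beta and BMP, and Notch genes, with lines between roles. The widest gaps are those of WNT7B, WNT4, FZD8, BMP4 and HES2, and most other pairs nearly touch.

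**Figure D2:**
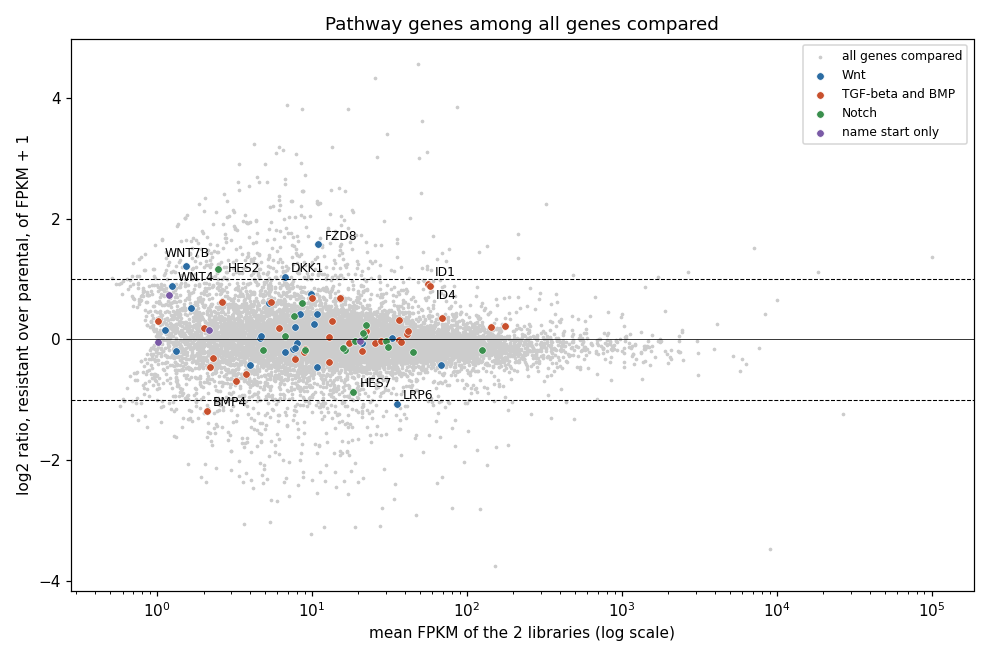
Log2 ratio of each gene against the mean FPKM of the 2 libraries (log axis), with all 12405 genes compared in grey and dashed lines at 1 and -1. FZD8, HES2, WNT7B and DKK1 lie above the upper line, and LRP6 and BMP4 below the lower one.

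Most of the compared Wnt ligand genes had a ratio above 0, at low levels. Of 19 listed ligands 7 had a row, 6 with a ratio above 0 and 1 below. WNT4 and WNT7B reached 1 FPKM only in the resistant library, so the filter fixed the sign of both. The count rests partly on them. With a filter of 5 FPKM only WNT2 (-0.16) and WNT5A (0.75) were left, 1 in each direction. Of all genes compared, 44.4% lay above 0. The median log2 ratio of the ligands, 0.51, is the value of WNT9A. This median was 0.20 with a pseudocount of 5 FPKM and 0.78 with one of 0.1. On strand-placed rows only it was 0.75, as the row that stood for WNT9A had no assigned strand. WNT7B, a ligand of lung epithelium during development, had 0.531 FPKM in the parental library and 2.54 in the resistant one (log2 ratio 1.21). Its gene occupies chr22:45920362-45977129 (minus strand; hg38, GENCODE, as for the other positions). WNT4 had 0.578 and 1.92 FPKM (0.89). Its FPKM ratio equals 10 to 3 times 0.996, the relative worth of 1 read in the libraries. Both of these ligands were below 1 FPKM in parental cells, and their ratios depend on the pseudocount: at 0.1 FPKM that of WNT7B was 2.06 and that of WNT4 was 1.57, and at 5 FPKM WNT7B had 0.45. WNT5A, a ligand best known for signalling without beta-catenin, had 7.12 FPKM in the parental library and 12.6 in the resistant one (0.75). WNT2 was the most abundant ligand in parental cells at 8.05 FPKM and had 7.11 in resistant cells (-0.16), so the order of WNT2 and WNT5A was exchanged. WNT10B had 4.57 and 4.79 FPKM (0.06), and its ratio was -0.01 once the library sums were equalised. WNT9A was represented by a row without an assigned strand, with 1.20 and 2.14 FPKM (0.51), while its strand-assigned row had 0.529 and 1.58 (0.76). WNT2B had 1.02 and 1.24 FPKM (0.15), and its FPKM ratio equals 11 to 9 times 0.996. The 7 ligands together had 23.1 FPKM in the parental library and 32.4 in the resistant one.

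The frizzled receptors had close totals in both libraries, with different shares. The 8 frizzled genes with a row had 129 FPKM together in the parental library and 123 in the resistant one. FZD8 had 5.03 FPKM in the parental library and 17.0 in the resistant one (log2 ratio 1.58), above 98.8% of the genes compared. It was the only one of the 82 genes still past 2-fold with a pseudocount of 5 FPKM (1.13). FZD8 occupies chr10:35638249-35642278 (minus strand). Its share of the frizzled sum was 3.90% in parental and 13.9% in resistant cells. FZD3, which guides axons and planar cell polarity, made up the largest share in both: it had 77.8 and 57.9 FPKM (-0.42), or 60.4% and 47.3% of the sum. With these values FZD8 moved from seventh to second among the 8 receptors. FZD2 had 12.6 and 8.92 FPKM (-0.46) and FZD7 had 8.73 and 6.84 (-0.31). FZD1 (9.02 and 12.5 FPKM, 0.43), FZD4 (7.03 and 9.76, 0.42) and FZD5 (7.16 and 8.42, 0.21) were higher in the resistant library by less than 2-fold. FZD9 had 1.48 and 1.18 FPKM (-0.19).

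**Figure D3:**
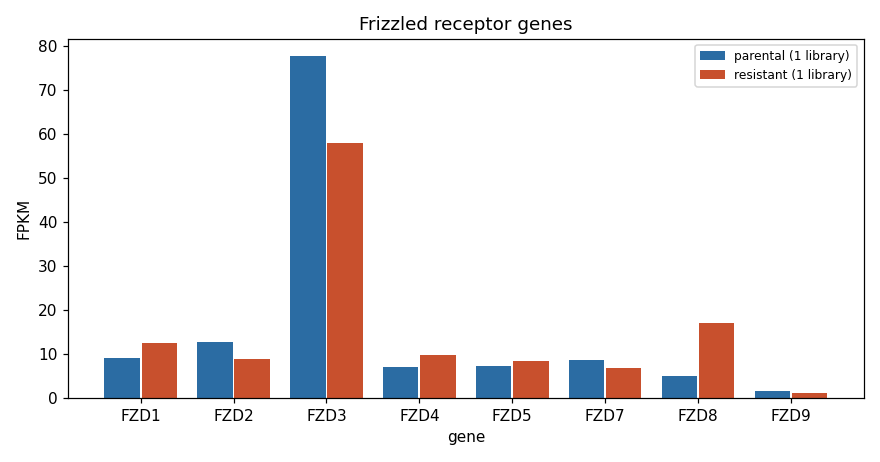
FPKM of the 8 frizzled receptor genes in the parental and the resistant library, 1 bar per library and no error bars since there are no replicates. FZD8 is the receptor with the widest proportional gap, 5.03 against 17.0 FPKM, and FZD3 the most abundant in both.

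LRP6, the main coreceptor of frizzled in beta-catenin signalling, was lower in the resistant library. It had 48.4 FPKM in the parental library and 22.5 in the resistant one (log2 ratio -1.07), and occupies chr12:12116025-12267012 (minus strand). Its ratio was -1.03 after division by the median ratio of all genes, and -0.96, short of 2-fold, with a pseudocount of 5 FPKM. The related LRP5 had 17.1 and 15.3 FPKM (-0.15), so LRP6 made up 73.9% of the sum of both coreceptors in parental and 59.5% in resistant cells. ZNRF3, a ubiquitin ligase that removes frizzled and LRP6 from the surface, had 9.37 and 11.4 FPKM (0.26). RNF43 was not analysed here.

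DKK1, a secreted inhibitor that binds LRP5 and LRP6 and is itself a known target of beta-catenin, was higher in the resistant library. It had 4.04 FPKM in the parental library and 9.36 in the resistant one (log2 ratio 1.04), and occupies chr10:52314296-52318042 (plus strand). The value sits at the limit: it was 0.96 once the library sums were equalised and 0.67 with a pseudocount of 5 FPKM. DKKL1, a relative expressed mainly in testis, had 4.74 and 3.28 FPKM (-0.42). Of 9 further secreted or surface inhibitors of Wnt listed, 5 were compared and none passed 2-fold (median -0.14). KREMEN2, a receptor that acts with DKK1, had 40.0 and 36.3 FPKM (-0.14), SFRP1 had 12.9 and 9.20 (-0.45), NOTUM, an esterase that inactivates Wnt, had 7.95 and 6.54 (-0.25), and FRZB, a soluble frizzled relative, had 2.84 and 5.55 (0.77).

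The promoters of DKK1, FZD8 and BMP4 are printed because these genes passed the 2-fold limit on a strand-assigned row and had an entry in the RefSeq promoter table (build GRCh38.p14). LRP6 and WNT7B had none there. Each run is the 250 bases before the RefSeq gene start, read on the gene's strand. Capitals mark matches to 4 motifs, searched on both strands. The core of the TCF and LEF motif is CTTTGA, which reads TCAAAG on the other strand. The core of the RBPJ motif is TGGGAA, which reads TTCCCA there. A GC box bound by SMADs is GGCGCC, the same on both strands. The TATA box is TATAAA, which reads TTTATA on the other strand.
DKK1, chr10:52314031-52314280, plus strand: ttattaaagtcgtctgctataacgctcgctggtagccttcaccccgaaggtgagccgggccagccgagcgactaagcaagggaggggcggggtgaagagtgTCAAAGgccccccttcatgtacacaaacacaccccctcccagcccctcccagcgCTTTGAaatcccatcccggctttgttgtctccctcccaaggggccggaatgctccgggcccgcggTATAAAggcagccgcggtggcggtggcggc
FZD8, chr10:35642297-35642546, minus strand: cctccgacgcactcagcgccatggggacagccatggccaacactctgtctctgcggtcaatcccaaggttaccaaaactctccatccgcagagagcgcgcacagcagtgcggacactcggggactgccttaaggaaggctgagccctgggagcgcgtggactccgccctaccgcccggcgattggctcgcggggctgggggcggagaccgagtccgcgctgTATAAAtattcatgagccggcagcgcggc
BMP4, chr14:53955051-53955300, minus strand: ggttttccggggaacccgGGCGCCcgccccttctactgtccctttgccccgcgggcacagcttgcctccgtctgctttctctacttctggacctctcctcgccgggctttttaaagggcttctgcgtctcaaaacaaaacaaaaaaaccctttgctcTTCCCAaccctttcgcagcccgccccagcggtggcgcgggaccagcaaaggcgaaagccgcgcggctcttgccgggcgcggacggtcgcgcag

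The DKK1 window held 2 matches to the TCF and LEF core, starting 149 and 95 bases before the gene start, and a TATAAA 30 bases before it. The RefSeq start of BMP4 lies inside the GENCODE interval given for that gene, which begins further upstream. FZD8 had a TATAAA match starting 29 bases before its start and no other match. BMP4 had a GGCGCC at 232 and an RBPJ core at 93 bases before the start. No marked matches overlapped. Of 34788 promoter windows of this length, 11.2% held the TCF and LEF core, 20.8% the RBPJ core, 16.4% the GC box and 10.8% TATAAA. Of the 68 windows of these genes, 3 held the TCF and LEF core (4.41%), 11 the RBPJ core (16.2%), 23 the GC box (33.8%) and 8 TATAAA (11.8%). Their base composition differs, with a median GC content of 70.6% against 58.0% of all windows. A match describes letters and was not tied to binding by any measurement here.

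Downstream of the receptors, the 7 genes of the destruction complex and of the TCF factors all lay within 2-fold. GSK3B, the kinase that marks beta-catenin for destruction, had 32.5 and 33.1 FPKM (log2 ratio 0.02, or -0.06 with equalised sums), AXIN1, the scaffold, had 21.5 and 20.6 (-0.06), and APC had 8.25 and 7.42 (-0.14). AXIN2, a scaffold whose gene is a widely used readout of beta-catenin signalling, had 4.01 FPKM in the parental library and 6.58 in the resistant one (0.60). TCF7L2 had 8.27 and 7.87 FPKM (-0.06), TCF7 had 7.32 and 6.19 (-0.21) and TCF7L1 had 4.57 and 4.66 (0.02, -0.30 with both of its rows summed). LEF1 was not analysed here. The 27 Wnt genes had a median of 0.02, or -0.04 with equalised sums, where all genes compared had -0.12.

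Other Wnt genes came from lists of cytoplasmic and nuclear partners and of receptors that act without beta-catenin. Past 2-fold were 1 of 20 compared genes (5%) of the first list and 1 of 6 (16.7%) of the second. Of all genes compared, 5.98% were past it. TLE4, a corepressor that TCF factors recruit, had 0.0384 FPKM in the parental library and 6.76 in the resistant one (log2 ratio 2.90, and 1.22 with a pseudocount of 5 FPKM), the only one of 20 compared cytoplasmic and nuclear genes past the limit. Its paralogs lay within 2-fold: TLE1 had 8.17 and 5.16 FPKM (-0.58), TLE2 had 7.02 and 11.8 (0.68) and TLE3 had 15.9 and 15.2 (-0.06). The abundant members of that list were CSNK1A1, a kinase of the destruction complex, at 169 and 117 FPKM (-0.53), CTNNB1, beta-catenin itself, at 81.1 and 76.7 (-0.08), and DVL1 at 49.3 and 51.6 (0.06, or -0.02 with equalised sums). BCL9L, a coactivator of beta-catenin, had 26.0 and 51.1 FPKM (0.95). Of 6 non-canonical receptor and polarity genes, ROR1, a receptor of WNT5A, was lower, at 5.08 and 1.38 FPKM (-1.35, -0.66 with a pseudocount of 5 FPKM). The polarity gene VANGL2 had 6.07 and 2.80 FPKM (-0.90) and ROR2 had 13.3 and 8.70 (-0.56), whereas PTK7 had 65.9 and 79.3 (0.26) and RYK 50.0 and 46.6 (-0.10). The 4 compared genes of Wnt secretion and agonists all lay within 2-fold, with LGR4, a receptor of R-spondins, at 14.7 and 18.7 FPKM (0.32), PORCN at 5.22 and 4.21 (-0.25), RSPO4 at 5.10 and 6.15 (0.23) and WLS, which carries Wnt proteins to the surface, at 1.32 and 2.59 (0.63).

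The 3 compared TGF-beta and activin ligand genes and the 7 receptor genes all lay within 2-fold. TGFB1 was the most abundant ligand, with 36.9 FPKM in the parental library and 36.6 in the resistant one (log2 ratio -0.01, 0.03 after division by the median ratio). INHBA, the activin A subunit, had 8.77 and 6.83 FPKM (-0.32) and TGFB3 had 2.63 and 1.95 (-0.30). The 7 compared receptors had a median of 0.10, with 4 above 0 and 3 below (57.1% above, against 44.4% of all genes compared). TGFBR2, the receptor that binds TGF-beta first, had 11.4 and 18.9 FPKM (0.68), while its partner kinase TGFBR1 had 9.64 and 8.18 (-0.21) and the coreceptor TGFBR3 had 22.6 and 19.6 (-0.20). The most abundant were ACVR1B, ACVR2B and ACVR1, and the least abundant ACVR2A (5.65 and 6.57 FPKM, 0.19). ACVR1B had 60.6 and 77.4 FPKM (0.35), ACVR2B had 39.6 and 42.4 (0.10) and ACVR1, which carries BMP signals, 26.0 and 24.9 (-0.06). FST, which traps activin, had 1.87 and 3.39 FPKM (0.61). FSTL3, a related secreted activin trap from the list of extracellular TGF-beta genes, passed 2-fold, with 33.8 FPKM in the parental library and 77.2 in the resistant one (1.17), and still did with a pseudocount of 5 FPKM (1.08). It was the only one of 10 compared genes of that list past 2-fold (10%, against 5.98% of all genes). BAMBI, a decoy receptor, had 15.6 and 7.89 FPKM (-0.90), FSTL1 had 4.67 and 2.26 (-0.80), LTBP4, which holds latent TGF-beta in the matrix, had 51.7 and 50.0 (-0.05) and LTBP3 had 15.3 and 21.3 (0.45).

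Of 5 BMP ligand genes 3 had a ratio below 0 and 2 above (40% above, against 44.4% of all genes compared). BMP4 reached 1 FPKM only in the parental library and BMP8A only in the resistant one, so the filter fixed the sign of both. Both BMP receptors had a ratio above 0. BMP4, a ligand of lung and foregut development, had 3.31 FPKM in the parental library and 0.901 in the resistant one (log2 ratio -1.18). It occupies chr14:53949736-53958761 (minus strand). The value depends on the pseudocount, at -1.77 with 0.1 FPKM and -0.49 with 5. Its FPKM ratio equals 3 to 11 times 0.996, the relative worth of 1 read in the libraries. Few reads can give such a ratio, and so can any multiple of them. BMP7 was the most abundant ligand at 14.8 and 11.1 FPKM (-0.38), and BMP6 had 4.70 and 2.82 (-0.58). BMP8A (0.802 and 1.23 FPKM, 0.31) and BMP8B (1.84 and 2.22, 0.18) are near-identical copies between which reads can be split, so their values are uncertain. The median of the 5 ligands was -0.38. BMPR2 had 32.6 and 41.0 FPKM (0.32) and BMPR1A had 21.4 and 23.6 (0.14). BMP1, which despite its name is a procollagen protease, had 12.0 and 15.0 FPKM (0.30).

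The 6 SMADs that carry signals to the nucleus had a median of -0.05 and none passed 2-fold. SMAD4, the shared partner, had 39.6 and 43.5 FPKM (log2 ratio 0.13), SMAD2 had 38.1 and 37.0 (-0.04), SMAD5 had 28.2 and 27.6 (-0.03) and SMAD9 had 17.8 and 17.0 (-0.06). Ratios of SMAD2 and SMAD5 turned above 0 after division by the median ratio. SMAD3, which carries TGF-beta signals with SMAD2, had the lowest level of the 6, at 2.72 and 1.70 FPKM (-0.47), and SMAD1 had 9.63 and 8.55 (-0.15). The inhibitory SMADs had ratios of opposite sign. SMAD6, which favours BMP receptors, had 7.46 FPKM in the parental library and 12.7 in the resistant one (0.69), and SMAD7, which blocks TGF-beta receptors as well, had 4.26 and 2.26 (-0.69). Both are under 2-fold.

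All 4 ID genes, inhibitors of basic helix-loop-helix factors that respond to BMP, were higher in the resistant library, none by 2-fold. They stayed above 0 under each scaling tried. Of all genes compared, 44.4% had a ratio above 0. ID1 had 38.8 FPKM in the parental library and 74.0 in the resistant one (log2 ratio 0.92). ID4 had 40.3 and 75.5 FPKM (0.89). The levels of these 2 genes resembled each other in each library, and their log2 ratios lay above those of 96.0% of the genes compared. ID3 had 162 and 189 FPKM (0.23) and ID2 had 133 and 154 (0.21), among the most abundant of the 82 genes. Summed FPKM over the 4 was 374 in the parental library and 493 in the resistant one, and ID1 made up 10.4% and 15.0% of it. Beside them, 9 regulators and targets of SMADs were compared and none passed 2-fold. CTGF, a matrix protein induced by TGF-beta and by YAP, had 598 and 437 FPKM (-0.45), SKI, a repressor of SMADs, had 68.5 and 91.6 (0.41) and SMURF1, a ubiquitin ligase, had 56.7 and 56.2 (-0.01).

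Of the 17 Notch genes compared, 1 passed 2-fold (HES2), or 5.88% against 5.98% of all genes compared. The median log2 ratio of the 17 was -0.03, and -0.04 over all genes compared. NOTCH2 was the most abundant receptor, with 32.4 FPKM in the parental library and 29.6 in the resistant one (log2 ratio -0.13). NOTCH3 had 20.7 and 22.3 FPKM (0.10) and NOTCH1 had 5.20 and 4.47 (-0.18). NOTCH2NL, at 9.60 and 8.35 FPKM (-0.18), is a partial copy of NOTCH2, so reads can be split between them. Of the ligands, JAG1 had 48.2 and 41.5 FPKM (-0.21), JAG2 had 20.6 and 24.4 (0.23) and DLL3 had 19.3 and 18.9 (-0.03). In the nuclear complex RBPJ, the DNA-binding partner of Notch, had 21.2 and 22.0 FPKM (0.05) and its coactivator MAML1 had 30.4 and 29.8 (-0.03), while NUMB, an inhibitor of Notch, had 16.7 and 15.0 (-0.15). These 10 receptors, ligands and nuclear partners lay between -0.21 and 0.23, and ratios as small as those of RBPJ, MAML1 and DLL3 changed sign with the scaling.

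The 7 compared HES and HEY repressors, known targets of Notch, ranged from -0.86 to 1.17. HEY1 was by far the most abundant, with 134 FPKM in the parental library and 118 in the resistant one (log2 ratio -0.18). HES7, known from the segmentation clock, had 24.2 and 12.9 FPKM (-0.86), and HES6, which opposes HES1, had 17.4 and 15.3 (-0.17). HES4 had 6.62 and 10.5 FPKM (0.60), HES1 had 6.50 and 8.84 (0.39) and HEYL had 6.59 and 6.92 (0.06). HES2 was the one member past 2-fold (14.3% of the 7, against 5.98% of all genes compared). It had 1.15 and 3.82 FPKM (1.17) in a row without an assigned strand. The strand-assigned row of HES2 (chr1:6412418-6424670, minus strand) had 1.32 and 2.56 FPKM (0.62), short of 2-fold. The ratio of the first row equals 10 to 3 times 0.996. HEY2 had 0.807 and 0.964 FPKM and was not compared. The median of the 7 compared was 0.06, with 4 above 0 and 3 below (57.1% above, against 44.4% of all genes compared). With equalised sums it was -0.01, where all genes compared had -0.12.

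Other genes of the Notch pathway held 1 past 2-fold among 25 compared. DLK2, a relative of the Delta ligands that can inhibit Notch, had 8.28 FPKM in the parental library and 3.42 in the resistant one (log2 ratio -1.07, -0.66 with a pseudocount of 5 FPKM). All 13 compared genes of Notch processing lay within 2-fold, with a median of -0.11. ADAM10, the protease that makes the first cut after ligand binding, had 32.2 and 18.9 FPKM (-0.73), the lowest ratio of that list. The gamma-secretase subunits APH1A (81.8 and 62.3 FPKM, -0.39) and NCSTN (52.7 and 46.2, -0.19) were the most abundant of it, and PSENEN had 35.8 and 40.7 (0.18). MIB1, a ligase that primes ligands, had 50.8 and 42.8 FPKM (-0.24), MAML2 had 20.6 and 13.1 (-0.61) and NRARP, a feedback target of Notch, 17.6 and 20.7 (0.22). Over all 79 compared of 108 listed genes of these pathways outside the rule, 2 were at least 2-fold higher and 2 lower, 5.06% together against the 5.98% of all genes, with a median of -0.04.

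**Figure D4:**
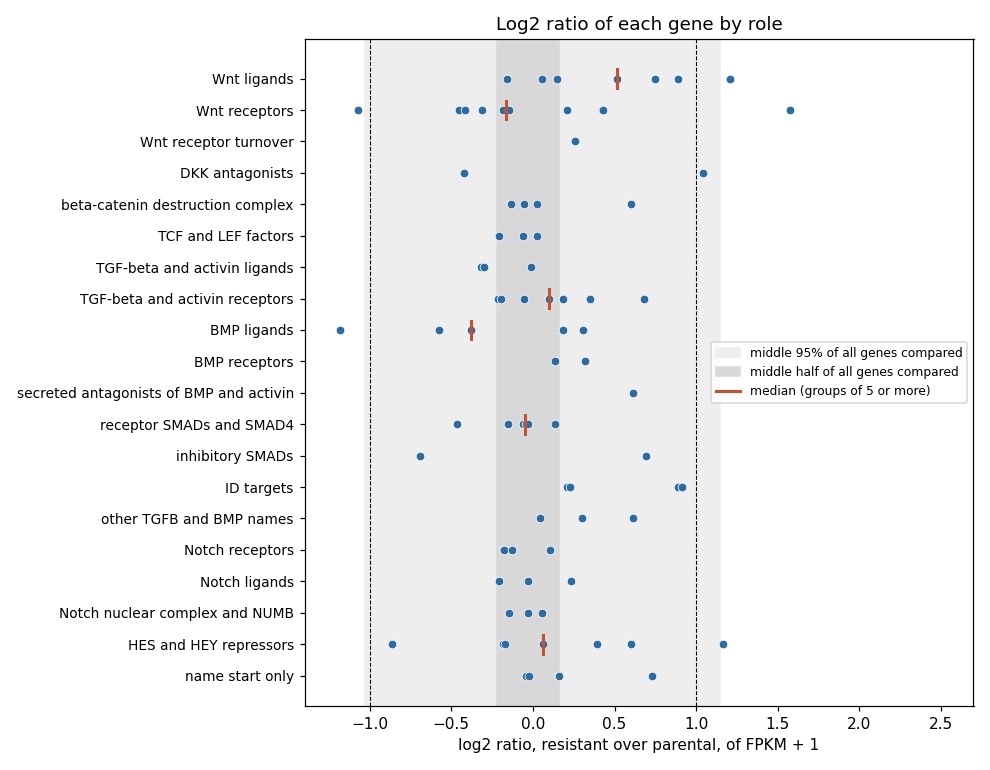
Log2 ratio of each of the 81 compared genes, 1 point per gene, by role, with the interquartile range (darker) and the middle 95% (lighter) of all genes compared shaded, dashed lines at 1 and -1 and a bar at the median of roles with 5 or more genes. Wnt ligands have their median at 0.51 and BMP ligands at -0.38, and Notch receptors, ligands and nuclear partners stay close to 0.

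Of the 4 genes on no role list, ACVR2B-AS1, an antisense RNA gene beside ACVR2B, had 0.655 and 1.74 FPKM. Its log2 ratio was 0.73, and 1.29 with a pseudocount of 0.1 FPKM. Its FPKM ratio equals 8 to 3 times 0.996. Whether the counting used strand is not given in the sources used here, so its reads cannot be told apart from those of ACVR2B with certainty. JAGN1, a gene of neutrophil differentiation, had 20.7 and 20.4 FPKM (-0.02), TGFBR3L had 1.99 and 2.34 (0.16) and HESX1, a pituitary homeobox gene, had 1.04 and 0.981 (-0.04). BMP2K, a kinase named for its induction by a BMP, was represented by a row without a strand at 4.08 and 6.78 FPKM (0.61), and its strand-assigned row had 2.92 and 3.35 (0.15). TGFBRAP1, a trafficking protein that binds TGF-beta receptors, had 12.7 and 13.1 FPKM (0.04).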

How the data were processed

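Per the labels, strand-preserving libraries were made from polyadenylated RNA of 1 parental and 1 resistant culture. The deposited values are FPKM computed by the authors, with a column for each library, per the file headers. The submitters' processing notes name TopHat2, without a version, and hg38. Which program and gene models gave the FPKM is not stated in them. Read counts were not used here, so depth and counting intervals are unknown.

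The members and gene lists were chosen with earlier results of these data known. Unnamed and date-like names were left out, and the row with the highest mean FPKM stood for a name. Genes that reached 1 FPKM in a library were compared by log2 ratio with a pseudocount of 1, and a limit of 1 or -1 replaced a test. Rows were placed on a strand from the order of the table and GENCODE release 29: of 11759 placed rows with an annotated strand, 98.7% lay on it, and 6285 of 19217 rows had none. This is inferred and not recorded in the table. The worth of 1 read, a resistant to parental ratio of 0.996, is the factor under which 53.0% of 7591 rows under 5 FPKM had a ratio of whole numbers up to 20, within a relative tolerance of 2e-05. It held so for 8 of the 81 genes compared. Of 117 symbols given a role, 39 had no row and were not analysed here.

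Named were DKK1, BMP4, each gene past 2-fold, members over 0.58 in size, and the most abundant of each role or list. Others were chosen after their values were seen. Promoters were matched by symbol for 68 of 82 genes. Alternatives were pseudocounts of 0.1 and 5, no filter and one of 5 FPKM, both scalings, summed rows, strand-placed rows and a 4-fold limit. The ratio and the 2-fold limit were run on simulated data built with the same formula. Such a run checks the arithmetic only and cannot show the spread of real libraries. Work used Python 3.11.15, pandas 2.3.3, NumPy 2.4.6 and matplotlib 3.10.9.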

Additional observations from a re-analysis of the deposited data

How the results depend on the processing

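With a pseudocount of 5 FPKM, 1 of the pathway genes (FZD8) stayed at least 2-fold higher and 0 lower, and 142 and 136 of all genes did. With one of 0.1, 6 of the 81 pathway genes were higher and 2 lower, and 614 and 478 of all genes. Of the other pathway genes 5 were lower there, against 2 in the main setting and 0 with a pseudocount of 5. A filter of 5 FPKM left 61 pathway genes, 2 of them higher and 1 lower, and 286 and 262 of all genes. A 4-fold limit on FPKM with 1 added left 0 and 0 pathway genes, and 76 and 60 of all genes. In FPKM without the added 1, WNT7B differed 4.78-fold. The median ratio of all 81 genes was -0.044 with equalised sums. That of Wnt genes was -0.044 there and -0.058 with a filter of 5 FPKM, and that of HES and HEY genes was -0.012 and -0.054. Over all genes compared the median was -0.115 with equalised sums and -0.048 with that filter. The Wnt ligand median was 0.78 and 0.20 with pseudocounts of 0.1 and 5, and 0.75 with rows summed and with strand-placed rows only. With a filter of 5 FPKM it was 0.29, the midpoint of WNT2 (-0.16) and WNT5A (0.75), the only ligands left. The cause of these shifts was not tested beyond the settings themselves. LRP6 and DKK1 lie so near the limit that it decides their count. No called gene changed sign under any of these settings. No paired analysis was possible because each group had 1 library. Without replicates or counts, the spread of any value is unknown.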

Other observations

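Several of these genes had rows without an assigned strand. There were 28 such rows for 13 genes, and 3 of the rows stood for the name (HES2, WNT9A and BMP2K). A ratio above 0 was found for 15 of the 28 and below 0 for 13, and over all 5897 strandless rows of at least 1 FPKM in either library 56.7% lay above 0. JAG2, the Notch ligand, had 7 rows. Its strand-assigned row was near level at 20.6 and 24.4 FPKM, while 5 of its 6 strandless rows were higher in the resistant library, from 6.36 and 8.45 FPKM (log2 ratio 0.36) to 2.80 and 7.21 (1.11), and the sixth had 2.05 and 1.98 (-0.04). All 4 strandless rows of the procollagen protease BMP1 were higher, from 1.25 and 2.49 FPKM (0.63) to 0.525 and 3.14 (1.44). Of the 18 strandless rows of other genes 6 were higher, those of HES2 and WNT9A, 1 of BMP2K and those of BMPR1A. Among the lower ones, those of WNT2 had 1.52 and 0.581 FPKM (-0.67) and 1.02 and 0.951 (-0.05), and both of SMAD9 were lower (-0.55 and -0.46). One of MAML1 had a log2 ratio of -1.12, that of TCF7L1 had 1.96 and 0.435 (-1.05), and that of TGFBR2 had 1.79 and 0.647 (-0.76), where its strand-assigned row had a ratio of 0.68. Some of these ratios equal small whole numbers times the relative worth of 1 read, as for 1 BMP1 row (1 parental to 6 resistant), TCF7L1 (9 to 2) and TGFBR2 (11 to 4).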
